A study of Mus musculus with 4 samples.

Results

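Secretory IgA reaches the gut lumen through a short chain of genes, and 8 of them were followed here: Pigr, the receptor that carries IgA across the epithelium, and 7 signals that let B cells switch to IgA with or without T cell help (Tnfsf13, Tnfsf13b, Tslp, Il5, Tgfb1, Lta and Ltb). They were chosen by name: every non-control probe whose gene name on the array is that of a member was taken, and the scanner intensities were used. Of the 8 members, 7 had such a probe, among 37322 gene names on the array, and these 7 were read by 11 of its 56605 probes. No probe carried the name Tnfsf13, so that member is described only through a probe it shares with a read-through transcript.

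The samples were mechanically scraped epithelium of the jejunum and of the ileum of mice on the C57BL/6J background, 9 weeks of age. Every mouse was Tcrbd-/-, so the controls too lacked T cells with a T cell receptor. The mice carried either DAO wt/wt or DAO G181R/G181R, the second being an allele known to remove most activity of D-amino acid oxidase. The 2 tissues and 2 DAO genotypes made 4 groups, and RNA mixed from 5 mice of a group was hybridised to 1 array. There was therefore no replicate of any group, no p-value and no spread between animals. The labels do not say whether jejunum and ileum came from the same mice. The only error at hand was that between replicate spots of a probe on an array, given below as the SD of a log2 difference at the brightness of the probe, which leaves out mice, pools and labelling.

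IgA is made by plasma cells under the epithelium, joined into dimers by the J chain, bound by the polymeric immunoglobulin receptor at the base of the enterocyte and released at its top together with a part of that receptor. B cells of the gut can switch to IgA without T cells when they meet BAFF (Tnfsf13b) or APRIL (Tnfsf13), which myeloid cells, stroma and epithelium make and which TSLP, an epithelial cytokine, calls forth from dendritic cells. TGF-beta 1 (Tgfb1) directs switching to the IgA constant region, IL-5 (Il5) favours IgA-secreting cells, and lymphotoxin alpha and beta (Lta, Ltb) from B cells and innate lymphoid cells build the follicles and stroma in which such B cells gather.

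The 2 probes named Pigr are shown because they read different things. The letters are those of the array files; in the first, which is printed whole, nothing stands out, whereas the second is a run of purines, of which the last 30 bases are given.
Pigr, probe on chromosome 1: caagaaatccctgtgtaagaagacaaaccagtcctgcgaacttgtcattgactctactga
Pigr, repeat probe placed on chromosome 19: aagaagaagaagaagaagaagaagaagaag
All 60 bases of the repeat probe were purines, as in 15 of the 56605 probes of the array, against 31 of 60 in the other. The array files placed the repeat probe at chr19:5932558-5932617 (mm9) and listed transcripts of 3 genes for it, Pigr, Zfp811 and Rhox8. The other probe lay at chr1:132741106-132741165 (mm9), on the chromosome of Pigr, and listed Pigr alone. Both are therefore given wherever Pigr is described.

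The 250 bases before the gene start are shown for Pigr, the carrier, and Ltb, the member with the largest measured difference between arrays; both were read from RefSeq on GRCm38.p6, plus strand, with matches to searched motifs in capitals.
Pigr, chr1:130826434-130826683: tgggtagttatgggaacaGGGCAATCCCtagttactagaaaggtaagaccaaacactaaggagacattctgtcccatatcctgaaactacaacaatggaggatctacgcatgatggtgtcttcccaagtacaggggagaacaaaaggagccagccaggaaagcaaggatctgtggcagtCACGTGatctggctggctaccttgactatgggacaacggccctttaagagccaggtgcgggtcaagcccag
Ltb, chr17:35194257-35194506: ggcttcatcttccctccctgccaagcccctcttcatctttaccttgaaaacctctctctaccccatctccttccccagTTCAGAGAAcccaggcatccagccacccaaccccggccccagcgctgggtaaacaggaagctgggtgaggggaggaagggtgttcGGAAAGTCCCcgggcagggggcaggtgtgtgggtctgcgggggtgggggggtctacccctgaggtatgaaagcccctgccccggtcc
A total of 5 motifs were searched on both strands, and a match is a description of letters, not a binding site. The E-box CACGTG, the form bound by the USF factors, began 71 bases before the Pigr start, and 6.02% of 32851 RefSeq windows of the same length held it. The kappaB motif, GGGA and CC with any 4 bases between them and a form bound by NF-kappaB, began 232 bases before Pigr and 87 before Ltb, and 17.6% of windows held it. The STAT palindrome TTCNNNGAA began 172 bases before Ltb, and 7.02% of windows held it. Of the other motifs, GAAA repeated after any 2 bases, the core of interferon-stimulated elements, was in 2.98% of windows and CAGACA, the SMAD box, in 17.1%; neither was in these 2 windows.

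The labels were checked against defining genes. Between 57.4% and 60.4% of probes were well above background on each array, no spot was saturated, and a log2 difference between arrays had a spot SD of 0.0561 to 0.0582 (median over 300 probes printed 10 times). Every probe of Trbc1, Trbc2 and Trdc, the constant regions of the T cell receptor chains removed here, was below background on all 4 arrays. Fabp6, the ileal bile acid binding protein, had processed signals of 11.2 and 17.0 in jejunum and 179372 and 162699 in ileum. The 10 enterocyte markers were well above background on every array, but so were all 7 fibroblast markers and 7 or 8 of 8 smooth muscle markers, so RNA of other cell types was present. In such mixed tissue, fewer cells of a type and less RNA per cell cannot be told apart.

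Pigr was nearly alike in the genotypes and lower in ileum than in jejunum. At the chromosome 1 probe its processed signal, the scanner intensity after background subtraction, was 2243 in wild-type jejunum, 2110 in G181R jejunum, 803 in wild-type ileum and 778 in G181R ileum. The jejunum arrays were high and the ileum arrays low, whichever the genotype. After each array was scaled to its 75th percentile, the log2 difference of G181R minus wild-type was -0.12 in jejunum (spot SD 0.078) and 0.03 in ileum (spot SD 0.083).

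The tissue difference of Pigr was far larger at that probe. The log2 difference of ileum minus jejunum was -1.73 in wild-type mice, 3.31-fold lower in ileum, and -1.57 in G181R mice, 2.98-fold lower. The repeat probe had processed signals of 79912.5, 75187, 53529 and 52380 in the same order of arrays. Its genotype differences matched in size, at -0.12 in jejunum and 0.05 in ileum, whereas its tissue differences were smaller, at -0.82 in wild-type and -0.65 in G181R mice (spot SD 0.056 for both). The repeat probe is the brighter and therefore the one that the rule for a gene's probe selects, so the counts below rest on it and Pigr is counted as under 2-fold between tissues. By the chromosome 1 probe it would be counted as 2-fold lower in ileum.

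**Figure D1:**
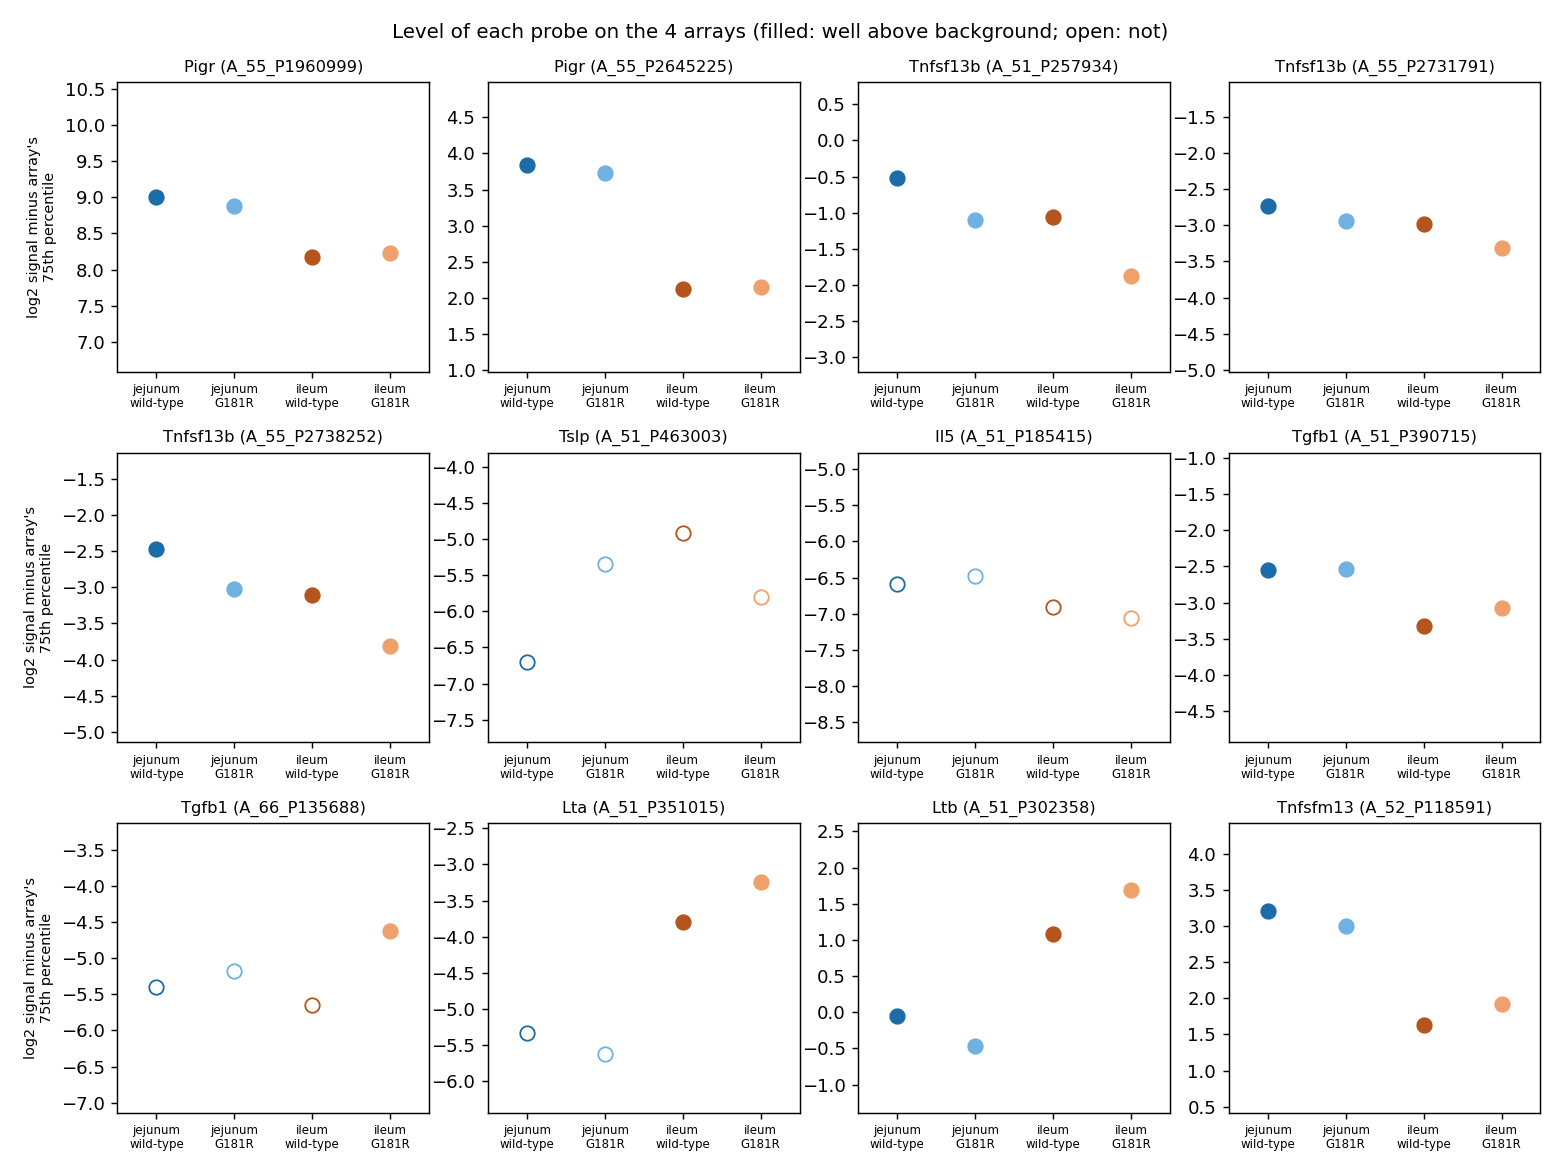
Level of each member probe, and of the probe shared by Tnfsfm13 and Tnfsf13, on the 4 arrays, as log2 processed signal minus the 75th percentile of the array; each panel has its own axis of equal length, and open circles were not well above background. Pigr sits higher on both jejunum arrays, Ltb highest in G181R ileum, and Tnfsf13b lower in G181R than in wild-type within each tissue.

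BAFF was lower in G181R mice in both tissues. The brightest Tnfsf13b probe, at chr8:10035561-10035620 (mm9), had processed signals of 109 in wild-type jejunum, 74.7 in G181R jejunum, 88.6 in wild-type ileum and 47.6 in G181R ileum. G181R ileum was the lowest array and wild-type jejunum the highest. The log2 difference of G181R minus wild-type was -0.58 in jejunum, 1.49-fold lower (spot SD 0.136), and -0.82 in ileum, 1.76-fold lower (spot SD 0.123). Both exceeded the spot SD, and neither reached 2-fold.

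The other Tnfsf13b probes were dim and lay the same way. The probe at chr8:10022841-10022900 had signals of 28.1 and 19.6 in jejunum and 21.5 and 12.5 in ileum (wild-type first), log2 differences of -0.55 and -0.70. The probe at chr8:10026129-10026188 had signals of 23.5 and 20.8 in jejunum and 23.3 and 17.6 in ileum, log2 differences of -0.21 and -0.33. At that brightness the spot SD was 0.288 in jejunum and 0.227 in ileum, so the jejunal value of the latter probe was within it. Ileum was lower than jejunum at all 3 probes, by -0.54 in wild-type and -0.78 in G181R mice at the brightest. With normexp background correction, which draws dim signals together, the genotype differences of the brightest probe were -0.32 in jejunum and -0.38 in ileum.

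Fibroblast markers, and most enterocyte and endothelial markers, lay lower in G181R mice in both tissues, as BAFF did. The part of any cell type in the BAFF values was not tested. Of enterocyte markers, 8 of 10 were below 0 in jejunum and 9 of 10 in ileum (medians -0.13 and -0.24). Of endothelial markers, 5 of 6 measured were below 0 in jejunum and 4 of 5 in ileum (medians -0.11 and -0.18). All 7 fibroblast markers were below 0 in both genotype comparisons, with medians of -0.26 in jejunum and -0.62 in ileum, and they summed to 1621 and 1376 in jejunum and 1709 and 1150 in ileum (wild-type first), with the 75th percentile of each array set to 100. Of the smooth muscle markers, 6 of 7 measured were above 0 in jejunum (median 0.12) and 0 of 7 in ileum (median -2.37); the list summed to 4723 and 5163 in jejunum and 9394 and 4130 in ileum, with Lmod1 above background only in wild-type ileum.

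Macrophage and dendritic cell markers were not lower as a list. Of 10 macrophage and dendritic cell markers, 9 were well above background on every array and Xcr1 on none. In G181R against wild-type, 5 of 9 were below 0 in jejunum (median -0.04) and 8 of 9 above 0 in ileum (median 0.28). Their sums of 24981 and 31576 in jejunum and 43795 and 46024 in ileum were carried mostly by Lyz2, which made up 62.2% to 87.4% of them. Without Lyz2 they were 9452 and 11876 in jejunum and 5533 and 7923 in ileum. These remainders were in turn carried mostly by Itgam, at 0.41 in jejunum and 0.56 in ileum. Its other measured probe was at -0.69 in jejunum, so the remainders do not describe the list as a whole.

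The genes whose 4 values lay nearest to those of Tnfsf13b were Tshz3 (root mean square distance 0.012 on the log2 scale), Itga11 (0.029) and Plgrkt (0.030), among 13907 named genes well above background on all arrays. Over only 4 arrays such likeness is common, and 54 genes lay within a distance of 0.1.

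APRIL could be read only together with a neighbour. The probe named Tnfsfm13, the read-through transcript that joins Tnfsf12 to Tnfsf13, lies at chr11:69496657-69496716 (mm9) and lists transcripts of both Tnfsfm13 and Tnfsf13. Its processed signals were 1443 in wild-type jejunum, 1275 in G181R jejunum, 571 in wild-type ileum and 663 in G181R ileum. Both jejunum arrays were above both ileum arrays. The log2 difference of G181R minus wild-type was -0.21 in jejunum (spot SD 0.085) and 0.29 in ileum (spot SD 0.092). Ileum minus jejunum was -1.58 in wild-type mice, 2.99-fold lower in ileum, and -1.08 with G181R, 2.11-fold lower.

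Tslp and Il5 were not detected. The Tslp probe, on chromosome 18 at 32978885 to 32978944 (mm9), had processed signals of 1.503 and 3.92 in jejunum and 6.09 and 3.13 in ileum (wild-type first). The Il5 probe, at chr11:53538345-53538404, had 1.62 and 1.78 in jejunum and 1.54 and 1.31 in ileum. None of these was well above background, and the lowest signal that was lay between 5.83 and 7.36 on the arrays, so no fold is given. Low expression and its absence were not distinguishable at this sensitivity.

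Tgfb1 was dim, alike in the genotypes in jejunum and lower in ileum. Its brighter probe, at chr7:26489877-26489936 (mm9), had processed signals of 26.8 in wild-type jejunum, 27.5 in G181R jejunum, 18.5 in wild-type ileum and 20.8 in G181R ileum. The genotype difference was 0.00 in jejunum (spot SD 0.288) and 0.25 in ileum (spot SD 0.227), so that in ileum was close to the spread between spots. Ileum minus jejunum was -0.78 in wild-type and -0.53 in G181R mice, with spot SDs of 0.246 and 0.250. The second probe, at chr7:26477408-26477467, was well above background only in G181R ileum, where it was at least 1.04-fold higher than in wild-type ileum and at least 1.11-fold higher than in G181R jejunum.

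Both lymphotoxin genes were higher in ileum than in jejunum, and Ltb was highest in G181R ileum. Ltb, which anchors the lymphotoxin heterotrimer in the membrane and is read at chr17:35333097-35333156 (mm9), had processed signals of 151 in wild-type jejunum, 116 in G181R jejunum, 390 in wild-type ileum and 563 in G181R ileum. The ileum arrays were both above the jejunum arrays, and the genotypes lay in opposite order in the tissues. G181R minus wild-type was -0.41 in jejunum, 1.33-fold lower (spot SD 0.098), and 0.61 in ileum, 1.52-fold higher (spot SD 0.114). The ileal difference minus the jejunal one was 1.02 on the log2 scale, a value with no test. Ileum exceeded jejunum 2.18-fold in wild-type mice (log2 1.13) and 4.43-fold in G181R mice (log2 2.15).

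Lta, the soluble partner chain, lies beside Ltb and is read at chr17:35340275-35340334 (mm9). Its signals of 3.87 and 3.24 in jejunum were not well above background, whereas those in ileum, 13.3 in wild-type and 18.5 in G181R mice, were. Ileum was thus at least 1.53-fold higher than jejunum in wild-type and at least 2.90-fold higher in G181R mice. The ileal genotype difference was 0.56, with a spot SD of 0.691 taken from the 5 replicated probes nearest in brightness, so it was within the spread between spots.

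**Figure D2:**
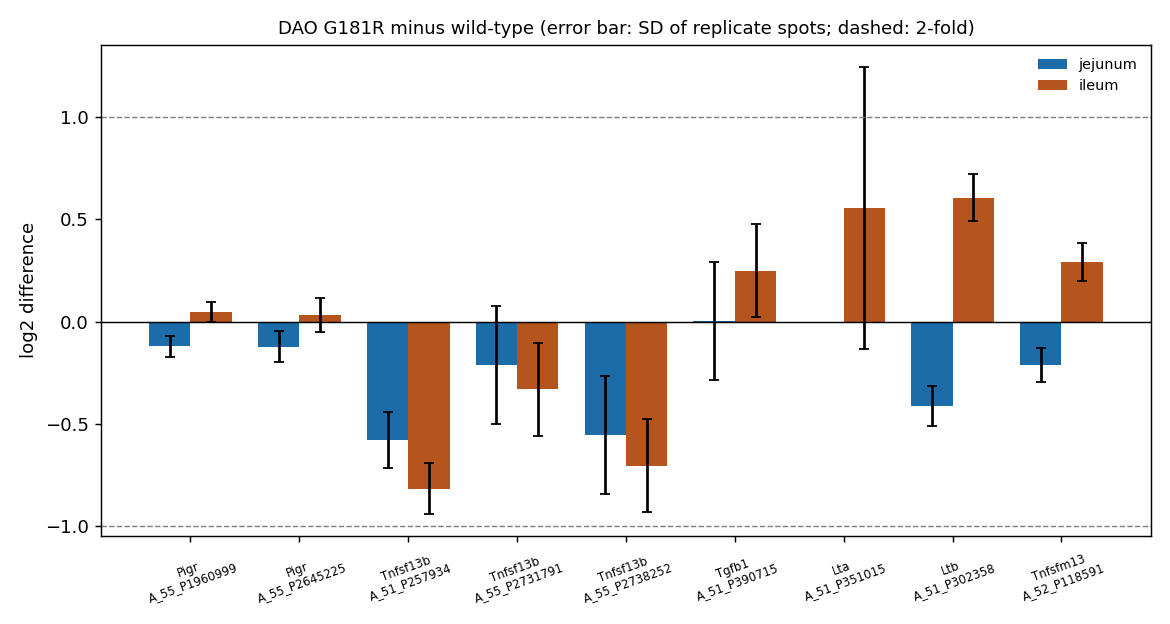
Log2 difference of DAO G181R minus wild-type at each measured probe in jejunum (blue) and ileum (orange); bars start at 0, error bars are the SD of a difference between replicate spots at that brightness, and dashed lines mark 2-fold. No bar reaches 2-fold, the 3 Tnfsf13b probes point down in both tissues, and Ltb points down in jejunum (-0.41) and up in ileum (0.61); Lta has no jejunal bar because it was below background there.

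Summed B cell markers lay in the same order as Ltb. Relative to wild-type jejunum, Ltb stood at 0.750 in G181R jejunum, 2.18 in wild-type ileum and 3.32 in G181R ileum. The summed signal of 10 B cell markers stood at 0.609, 2.87 and 4.81 on the same arrays. The sums themselves were 330, 201, 948 and 1585, with Blk below background on every array, Fcer2a on both jejunum arrays and Cd79a in wild-type jejunum. In G181R against wild-type, 6 of 7 measured were below 0 in jejunum (median -0.79) and 7 of 9 above 0 in ileum (median 0.68). At their brightest probes, Pax5 was at 0.23 in jejunum and -0.12 in ileum, and Cd22 at -0.17 and -0.20. Another probe of each was at 1.12 and 0.59 in ileum.

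Markers of follicle stroma were higher in ileum too, and those of the T cell receptor complex were not. The 6 follicle stroma markers on the array summed to 0.510, 3.28 and 5.16 of wild-type jejunum, but only 3 (Cxcl13, Clu and Ccl21a) were measured in every comparison and Clu made up 52.9% to 84.5% of the sum. Without Clu the values were 0.967, 2.05 and 4.15, with Madcam1 and Tnfsf11 below background throughout and Ccl19 above it only in G181R ileum. All 8 T cell receptor complex markers, which innate lymphoid cells in part share, were well above background on every array and summed to 0.760, 0.350 and 0.268, of which Cd4 made up 47.0% to 78.8%. Without Cd4 the values were 0.838, 0.604 and 0.670, and in ileum 4 of the 8 were above 0 in G181R mice and 4 below. The 10 innate lymphoid cell markers summed to 0.933, 1.09 and 0.635, with Il17a below background throughout; in G181R mice 6 of 7 measured were below 0 in jejunum and 4 of 6 in ileum, with a median of -0.28 in each. The part of any of these cell types in the Ltb values was not tested.

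By the fixed rule of likeness, the genes whose 4 values lay nearest to those of Ltb were Ighm (distance 0.032), which encodes the IgM heavy chain, H2-Aa (0.079), a class II antigen-presenting molecule, and Cep55 (0.106), a protein of cell division. Only 2 of 13907 genes lay within a distance of 0.1 of Ltb. For the chromosome 1 probe of Pigr, added after its values were seen, the nearest were Rmdn3 (0.027), Mdh2 (0.030) and Il1r1 (0.033), with 32 genes within 0.1.

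**Figure D3:**
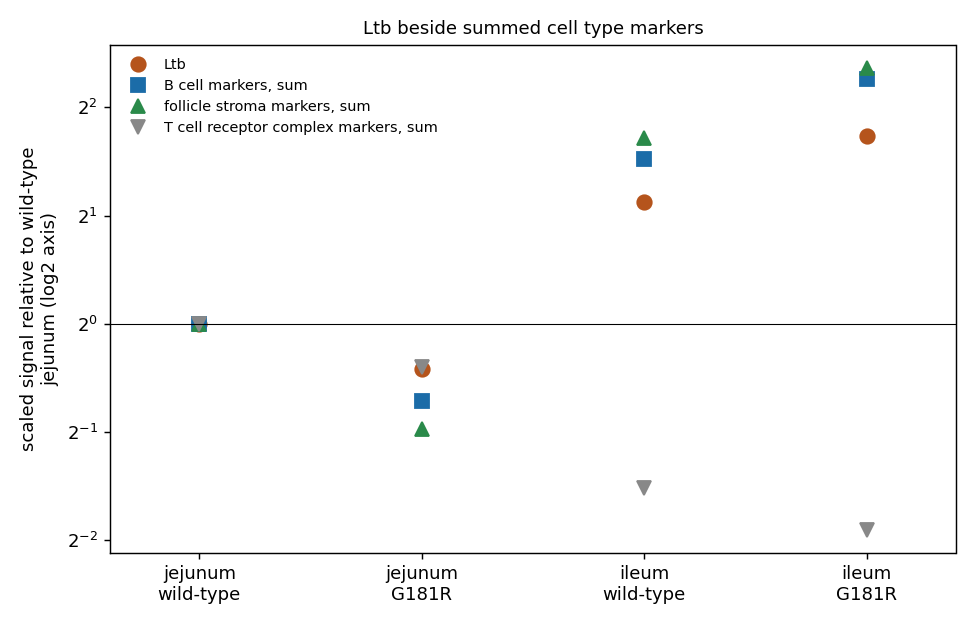
Scaled signal of Ltb and summed scaled signal of the B cell, follicle stroma and T cell receptor complex markers on the 4 arrays, each relative to wild-type jejunum on a log2 axis. Ltb (0.750, 2.18 and 3.32 on the other arrays) follows the order of the B cell and follicle stroma sums; the T cell receptor complex sum, carried mostly by Cd4, is below 1 on all 3 other arrays, and the follicle stroma sum is carried mostly by Clu.

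Counted over the members, no genotype difference reached 2-fold. In jejunum, 0 of 4 members measured on both arrays (Pigr, Tnfsf13b, Tgfb1, Ltb) were at least 2-fold different, against 1.51% of 21353 measured genes, and their median difference was -0.27, against -0.01 for all genes. In ileum it was 0 of 5 (the same and Lta) against 5.21% of 21606 genes, with medians of 0.25 and 0.03. With 4 or 5 members measured, a count of 0 cannot be set apart from such shares.

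Between tissues, Ltb alone of the members measured on both arrays was counted as different. It was 1 of 4 measured members in wild-type mice, against 16.5% of 20877 genes (7.41% higher and 9.11% lower), with medians of -0.66 for the members and -0.05 for all genes. In G181R mice it was again 1 of 4, against 16% of 21604 genes (7.3% higher and 8.73% lower), with medians of -0.59 and -0.03. Lta was left out of these counts because it was below background in jejunum, though in G181R mice it was at least 2.90-fold higher in ileum. The probe shared by Tnfsfm13 and Tnfsf13 was not counted either, and it was 2.99-fold lower in ileum in wild-type and 2.11-fold lower in G181R mice. At a fold of 1.5, the counts were 0 of 4 members in jejunum, against 7.47% of genes, and 2 of 5 (Tnfsf13b and Ltb) in ileum, against 15.4%. Between tissues they were 3 of 4 in wild-type mice, against 35.8%, and 3 of 4 in G181R mice, against 34.8%. The tissue comparisons use the same 4 arrays as the genotype comparisons, so a high or low array enters both.

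**Figure D4:**
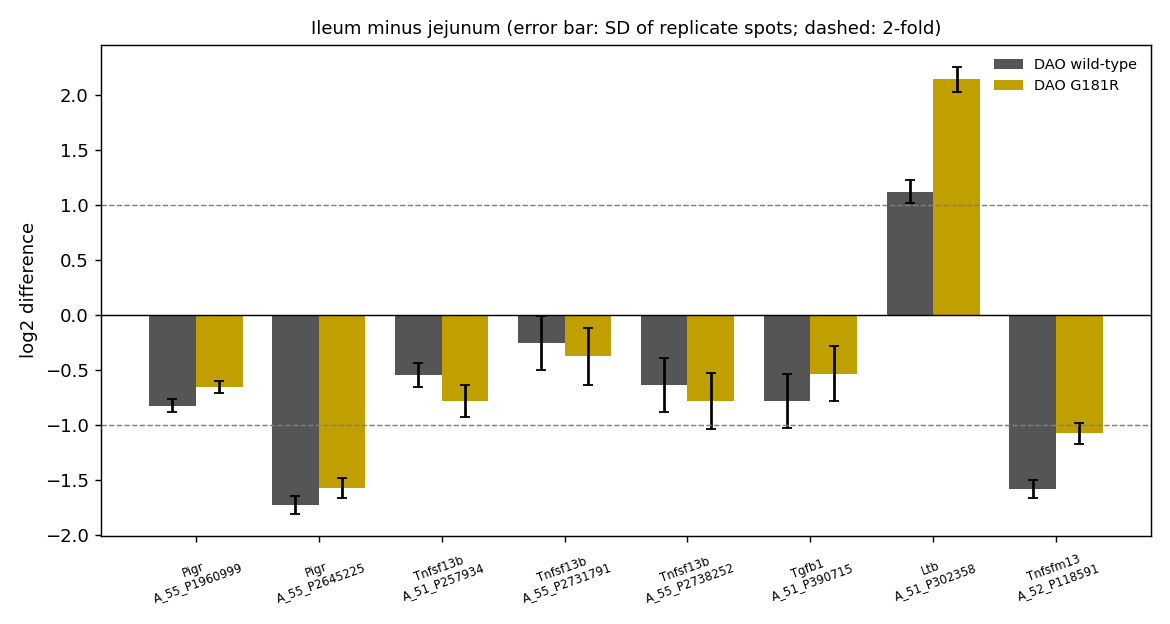
Log2 difference of ileum minus jejunum at each probe measured on all 4 arrays in wild-type (grey) and G181R mice (yellow); bars start at 0, error bars are the SD of a difference between replicate spots, and dashed lines mark 2-fold. Ltb is the only probe above 0 (1.13 and 2.15), and the chromosome 1 probe of Pigr (A_55_P2645225) and the Tnfsfm13 probe lie below -1 in both genotypes.

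The IgA heavy chain, the J chain and the kappa light chain were slightly higher in G181R mice. Of the 5 genes of IgA transport measured, other than Pigr, 0 were 2-fold higher or lower in either tissue, against 0.763% higher and 0.749% lower of all genes in jejunum and 2% and 3.21% in ileum. The median was 0.15 in jejunum and 0.31 in ileum. Igha, the IgA heavy chain, was at 0.15 and 0.31, and Jchain at 0.18 and 0.22. Igkc, the kappa light chain, was at 0.25 and 0.42. Ighm was at -0.46 in jejunum and 0.55 in ileum, the same opposite order as Ltb. Fcgrt, which carries IgG across cells, was at -0.59 in ileum. Of 8 plasma cell markers, 7 were well above background on every array and Tnfrsf17 on none. Their sums were 22065 and 27423 in jejunum and 25133 and 34169 in ileum, of which Igha made up 54.2% to 62.7%. Without Igha they were 8671 and 12556 in jejunum and 9369 and 14631 in ileum, carried mostly by Xbp1. Xbp1, not particular to plasma cells, was at 0.58 and 0.74. The part of plasma cells in these values was not tested.

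At its brightest probe, the BAFF receptor differed in opposite directions in the tissues. Tnfrsf13c, the receptor that binds BAFF alone and keeps B cells alive, had signals of 25.2 in wild-type jejunum, 8.65 in G181R jejunum, 123 in wild-type ileum and 221 in G181R ileum, log2 differences of -1.57 and 0.92. In the mean of its probes, which takes in probes at background, the values were -0.81 and -0.53, and with normexp the jejunal one was -0.40. Tnfrsf13b, which encodes TACI, a receptor of BAFF and APRIL, was at -0.09 in jejunum and 0.36 in ileum. Tnfrsf17, the receptor BCMA of plasma cells, was below background on all arrays.

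Downstream of these receptors, the list of 11 BAFF and APRIL receptors and signalling genes leaned low. In jejunum, 0 of 9 measured were 2-fold higher and 1 (Tnfrsf13c) 2-fold lower, against 0.763% and 0.749% of all genes. The list median there was -0.10, against -0.01 for all genes. In ileum, 0 of 10 were 2-fold higher and 1 (Cd40) 2-fold lower, against 2% and 3.21% of all genes. The median was -0.29, against 0.03 for all genes, and 7 of 10 were below 0. Cd40, which gives B cells the T-dependent signal, was at -1.04 in ileum from signals of 20.6 and 9.44, and at -0.18 with normexp. Relb, the partner of the non-canonical NF-kappaB pathway that BAFF receptor and lymphotoxin receptor both use, was at -0.94 in ileum and -0.06 in jejunum at its brightest probe. In ileum its other probes were at -0.13 and -0.89. Nfkb2, the other subunit of that pathway, was at 0.20 in jejunum and -0.51 in ileum.

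The receptors of TSLP and IL-5 were well above background at their brightest probes, that of IL-5 dimly, although their ligands were not detected. Crlf2, the TSLP receptor, had signals of 743 and 1049 in jejunum and 1691 and 2010 in ileum, log2 differences of 0.46 and 0.33. The other Crlf2 probe was at 0.21 in jejunum and -0.16 in ileum, of opposite sign there. Il7r, the partner of Crlf2, was at -0.13 and -0.34. Il5ra, the IL-5 receptor, had dim signals of 14.7 and 15.6 in jejunum and 14.9 and 23.1 in ileum, log2 differences of 0.05 and 0.71. The other probes of Il7r and Il5ra were not measured in either genotype comparison. Csf2rb, the signalling partner of Il5ra, was at -0.03 and 0.49.

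Il33, an alarmin of barrier tissue that drives type 2 innate lymphoid cells to make IL-5, was the largest difference in that list. Its signals were 416 and 1044 in jejunum and 43.8 and 246 in ileum, so it was 2.45-fold higher in G181R jejunum and 5.92-fold higher in G181R ileum (log2 1.29 and 2.57). With normexp the values were 1.20 and 1.65. Il7, a survival factor of lymphocytes, was 2.14-fold higher in jejunum and at -0.68 in ileum, from signals of 10.6 to 51.2, but at 0.23 and -0.24 with normexp. In jejunum, 2 of 8 measured genes of the list (Il33 and Il7) were 2-fold higher and 0 lower, against 0.763% and 0.749% of all genes. In ileum, 1 of 7 (Il33) was higher and 0 lower, against 2% and 3.21%. The list medians were 0.10 and 0.33, against -0.01 and 0.03 for all genes. Il4, Il9 and Il25 were below background on every array. Il13 was above it on all arrays but G181R ileum, with signals of 16.5 and 10.3 in jejunum and 10.5 in wild-type ileum.

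The list of TGF-beta pathway genes leaned low in G181R mice in both tissues. It also holds genes that restrain the pathway, so its lean does not give pathway activity. Of these, Smad7 was at -0.27 in jejunum and -0.23 in ileum, Skil at -0.33 and -0.24, and Tgif1 at -0.21 and -0.37. Of 19 measured genes of the list, 13 were below 0 in jejunum and 15 in ileum. The medians were -0.16 and -0.23, against -0.01 and 0.03 for all genes. The fibroblast markers were below 0 in both tissues as well (medians -0.26 and -0.62) and the smooth muscle markers in ileum (median -2.37), and their part in these values was not tested. None of the TGF-beta genes was 2-fold different in jejunum, against 1.51% of all genes. In ileum 1 was 2-fold lower, against 3.21% of all genes: Tgfbr3, the co-receptor betaglycan, at -1.01 (-0.39 with normexp). Ltbp3, which tethers latent TGF-beta to the matrix, was at -0.95 in ileum. The signalling receptors differed from each other, Tgfbr1 being at -0.21 in jejunum and -0.02 in ileum, and Tgfbr2 at 0.17 and 0.89. At another measured probe, Tgfbr1 was at -0.50 in jejunum and -0.41 in ileum. Smad4, the shared transcription partner, was at 0.66 in jejunum and 0.78 in ileum, the latter from signals of 3465 and 5642. Runx3, a factor that acts at the IgA switch region, was at -0.42 in jejunum and 0.39 in ileum. Its signals were dim, at 23.0 and 17.5 in jejunum and 14.1 and 17.6 in ileum (wild-type first).

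The lymphotoxin and TNF pathway lay high in G181R ileum. Of 9 measured genes, 8 were above 0 in ileum, with a median of 0.62, and 6 in jejunum, with a median of 0.16. All genes had medians of 0.03 in ileum and -0.01 in jejunum. Ltbr, the lymphotoxin beta receptor, was at 0.16 in jejunum and 0.35 in ileum, with signals of 4347, 4984, 3030 and 3659. Of the list, 1 gene, Cxcl13, was 2-fold higher in ileum, against 2% of all genes. Cxcl13 is the chemokine that draws B cells to follicles and that lymphotoxin induces. It had signals of 30.5 and 17.8 in jejunum and 149 and 288 in ileum, log2 differences of -0.80 and 1.03 (0.80 in ileum with normexp).

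Ccl19, a chemokine of the same stroma, was well above background only in G181R ileum, where it was at least 2.72-fold higher than in wild-type ileum (signals of 18.6 and 1.58). Ccl21a, a chemokine of lymphatic vessels and follicle stroma, was at 0.94 in ileum, and the adhesion molecule Icam1 at 0.91. Tnfrsf14, the receptor HVEM, was at 0.38 in jejunum at its brightest probe and at -0.06 at its other probe. Both B cell and follicle stroma marker sums were higher in G181R than in wild-type ileum, at 1.67 and 1.57 times, and Cxcl13, Ccl19 and Ccl21a belong to the latter list too; their part was not tested.

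Of the measured genes of switching and its local inducers, 1 of 8 in jejunum and 1 of 9 in ileum were 2-fold higher and 0 lower. In each case it was Nos2, whose nitric oxide favours IgA switching. Among all genes, 0.763% were higher and 0.749% lower in jejunum, and 2% and 3.21% in ileum. Nos2 had signals of 115 and 467 in jejunum and 4457 and 13034 in ileum. The list medians were -0.11 and 0.03. Il1b, an inflammatory cytokine, was at 0.78 in ileum and Ung, a DNA repair enzyme, at -0.41 in jejunum. Il21, a cytokine that drives plasma cell formation, was at 0.43 in ileum, from dim signals of 8.75 and 11.2. The lowest signals well above background on those arrays were 7.20 and 6.11.

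Known inducers of Pigr did not lean either way. Of 16 measured genes, 0 were 2-fold different in either tissue, against 1.51% of all genes in jejunum and 5.21% in ileum. In each tissue 7 were above 0 and 9 below, and the medians were -0.05 and -0.06. Il4ra, the receptor of IL-4, was at 0.88 in jejunum and 0.81 in ileum at its brightest probe, and at 0.57 and 0.02 at its other probe. The interferon receptor chain Ifngr2 was at -0.60 in ileum. Usf1 and Usf2, the factors of the E-box printed above for Pigr, were at 0.11 and -0.19 in jejunum and -0.16 and -0.26 in ileum. Il17a and Il17f were below background on all arrays.

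Genes of plasma cell homing and survival lay high in G181R ileum and were balanced in jejunum. Of 12 measured in ileum, 9 were above 0, with a median of 0.54 against 0.03 for all genes. There 1, Fkbp11, was 2-fold higher, against 2% of all genes. Of 10 in jejunum, 5 were above 0, with a median of -0.03 against -0.01 for all genes. At 2-fold there were 0 in jejunum, against 1.51% of all genes. Fkbp11, a folding enzyme of secretory cells, was at 1.11 in ileum (0.66 with normexp) and 0.39 in jejunum. Irf4, a factor that plasma cells need, was at 0.83 in ileum, from dim signals of 13.6 and 22.9. Xbp1, which expands the secretory apparatus, was at 0.58 in jejunum and 0.74 in ileum. Ccl25 and Ccl28, the epithelial chemokines that draw IgA plasma cells to the small and large intestine, were at -0.51 and 0.44 in ileum.

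**Figure D5:**
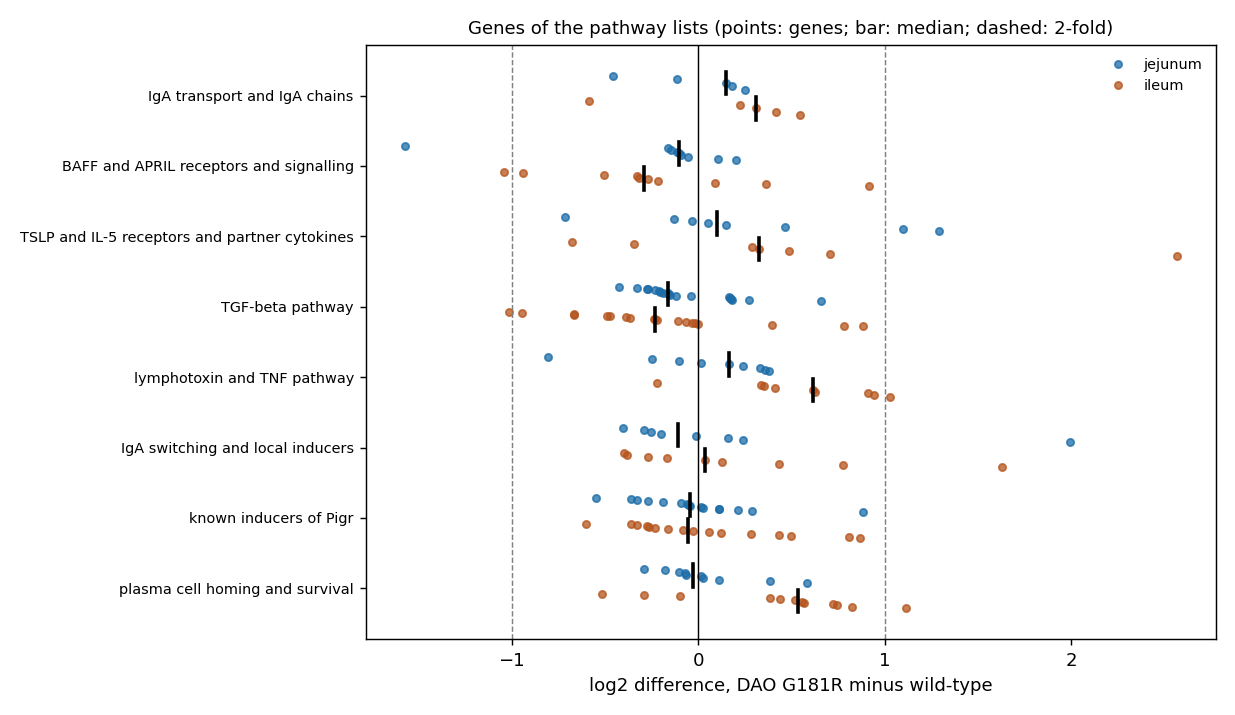
Log2 difference of DAO G181R minus wild-type for each measured gene of the 8 pathway lists, members left out, in jejunum (blue) and ileum (orange); black bars are list medians and dashed lines mark 2-fold. The lymphotoxin and TNF list (median 0.62) and the plasma cell homing list (0.54) sit to the right in ileum. The TGF-beta list, which also holds genes that restrain the pathway, sits to the left in both tissues (-0.16 and -0.23).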

How the data were processed

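RNA was labelled with Cy3 from 100 ng of pooled RNA per group, with integrity numbers over 9 per the labels' protocols, and hybridised to 1 array per group on 1 slide. The intensity values used were the processed signals, from which Agilent Feature Extraction 11.5.1.1 had subtracted background, per the file headers and the submitters' processing notes. The other values used, flags of 0 or 1 for signal well above background and for outlier spots, were set by the same software per the file headers. The deposited value table holds log2 values; 95.8% of its probes equalled the log2 processed signal minus a constant per array within 0.01, and 2356 held a repeated value, 0 of them member probes, so it served only as an alternative.

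Log2 processed signals were averaged over the spots of a probe without outlier spots, and the 75th percentile of each array was subtracted (Python 3.11.15, pandas 2.3.3). The brightest probe stood for a gene. Genes well above background on each array of a comparison were measured, and those at a fold of 2 or more were counted. Where only 1 array was above background, the fold is a lower bound against the higher of the dim signal and the lowest signal well above background there. Spot SDs come from replicated probes within 1 log2 unit of brightness, or the 5 nearest. The counting was tested on simulated data. Gene symbols came from RefSeq accessions on GRCm38.p6 (32994 probes) or from the array design; probe coordinates are mm9, as the files give them, and exon or UTR positions were not analysed here. RefSeq promoter windows matched 7 of the 8 members.

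Members, 8 pathway lists (105 other genes) and 13 marker lists were chosen with earlier results of these data known. Of each list, the text names up to 3 genes with the largest ileal and up to 2 with the largest jejunal genotype difference, and always the receptors of the member ligands; some genes this rule allows are not reported here, and other genes named were chosen after their values were seen. Likeness takes the 3 nearest genes for members spanning at least 1 log2 unit. Alternatives were normexp background correction with an offset of 50 (limma 3.58.1, R 4.3.3), median centring, quantile normalization, the mean of all probes, other filters on dim probes, outlier spots kept, the deposited table, a 1.5-fold threshold and, added after seeing the data, Pigr by its chromosome 1 probe and marker sums without their brightest gene.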

Additional observations from a re-analysis of the deposited data

Results flagged for a closer look

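Ltb was marked for a closer look because its genotype difference had opposite signs in the tissues, each beyond the spread between replicate spots. It was -0.41 in jejunum and 0.61 in ileum, so the ileal value exceeded the jejunal one by 1.02 on the log2 scale. With 1 array of pooled RNA per group, this difference was not tested. No group held enough arrays to look for an outlying sample.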

How the results depend on the processing

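No paired analysis was possible because each group is 1 array, and for the same reason no array could be left out. Of the members, 0 were 2-fold different in jejunum and 0 in ileum between genotypes; with no filter on dim probes the jejunal count was 1, and at 1.5-fold the ileal count was 2 (Tnfsf13b and Ltb). Between tissues the count was 1 of 4 in each genotype. In wild-type mice it was 0 with normexp, 2 in the mean of all probes, 3 of 7 with no filter, 2 with Pigr read on chromosome 1 and 3 at 1.5-fold. The 3 of 7 took in Tslp, below background on both arrays, and Lta, below it in jejunum. In G181R mice the count was 2, 2 of 7, 2 and 3 under the last 4 of these settings, and the 2 of 7 took in Lta again. The chromosome 1 probe was chosen as an alternative after seeing the data. Ltb between tissues in wild-type mice was 0.93 with normexp in place of 1.13; the cause was not tested. Small values turned sign in 1 case with quantile normalization (Pigr in ileum, -0.01 against 0.05) and in 1 with normexp (Tgfb1 in jejunum, -0.01 against 0.00); in the mean of its probes, Tgfb1 between tissues in G181R mice was 0.01 against -0.53. Among all genes, 163 were 2-fold higher and 160 lower in jejunum, against 60 and 33 with normexp. With no filter they were 1175 and 1663 of 37322 genes. In ileum these were 432 and 693, 180 and 216, and 1519 and 2017. Between tissues in wild-type mice they were 1547 and 1902. They were 784 and 1016 with normexp, 2971 and 4058 with no filter, and 1411 and 1818 in the mean of all probes. In G181R mice they were 1577 and 1887, then 768 and 975, 2951 and 3963, and 1464 and 1759. At 1.5-fold they were 724 and 871, 1466 and 1871, 3307 and 4176, and 3488 and 4029 in the same order. Signal over background leaves Tslp and Il5 with no fold and Lta with a bound between tissues.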
